A study of Ovis aries with 40 samples.

Results

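Expression of 6 genes of the LIN28/let-7 axis was followed through lung development in wild-type (WT) and CFTR-/- (CF) sheep. The genes were LIN28B, HMGA2, IGDCC3, IGF2BP1, IGF2BP2 and IGF2BP3, taken by gene name from the 24478 genes of the deposited count tables, and all 6 were found. They were chosen as a fetal programme under let-7 control, and 4 of the 6 encode RNA-binding proteins, while HMGA2 encodes a chromatin protein and IGDCC3 a membrane protein of the immunoglobulin superfamily. LIN28B, HMGA2, IGDCC3 and IGF2BP1 were at a small share of their day 65 level by term, while IGF2BP2 and IGF2BP3 were between 11.2 and 45.3 CPM, the read count scaled to library size, at term.

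LIN28 proteins bind the precursors of the let-7 microRNAs and block their maturation, and they can recruit terminal uridylyltransferases that mark the precursor for decay by DIS3L2. Let-7 in turn represses LIN28 transcripts together with HMGA2, IGDCC3, the IGF2BP transcripts, TRIM71 and other genes of the embryo. As tissues mature, LIN28 falls, mature let-7 accumulates and these targets decline, and several of them return in tumours, from which the name oncofetal comes. IGF2BP proteins bind messenger RNAs in the cytoplasm, IGF2 among them, and affect where they lie, how long they last and how well they are translated.

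Bulk RNA was sequenced from proximal and distal lung of fetuses aged 65, 80, 100 or 120 days and of lambs at term (147 days in the labels), with 2 libraries for each of 20 combinations of genotype, region and time point, 40 in all. WT American Romney sheep were bred normally and carried no edit. CF animals of the same breed were clones made by somatic cell nuclear transfer from 1 line of male fetal fibroblasts whose CFTR gene was targeted in exon 2, so that CFTR genotype, cloning and sex cannot be told apart. Ewes of both genotypes of pregnancy were given cloprostenol, a prostaglandin analogue, to synchronize estrus, and the recipients of CF embryos received a larger volume of it and vaginal sponges. WT term lambs were born naturally. By the labels, the proximal and distal tissue of a replicate came from the same animal, both WT day 100 replicates carry 1 animal label, and WT day 65 replicate 2 shares its label with CF day 100 replicate 2. The study describes its replicates as biological, and where replicates carry 1 animal label p-values may measure only technical spread.

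Total counts of the 16 fetal WT libraries were 24670355 to 43700012, those of the 16 fetal CF libraries 85773994 to 103139483, and those of the 8 libraries from term 115937437 to 126749480, so before term genotype and depth move together. A count of 3, taken as the floor of detection, was 0.0251 to 0.124 CPM, and a count of 0 allows a level up to it, for counting error only. The tissue, labelled as lung epithelial, held markers of epithelium (8 of 8 found above 1 CPM in every library), mesenchyme (10 of 10) and endothelium (6 of 6), so it was whole lung. Epithelial markers summed to 623 to 1103 CPM at day 65 and 6486 to 27808 CPM at term, and cartilage markers to 329 to 506 CPM and 7.36 to 21.6 CPM. The epithelial list named the surfactant genes SFTPB and SFTPC, and the study reports that SFTPB rose through to term. The part of surfactant genes in the epithelial sum was not tested. Mesenchymal markers summed to 10046 to 11269 CPM (WT) and 9404 to 15884 CPM (CF) at day 65 and to 3703 to 6935 CPM and 4029 to 9650 CPM at term. Leukocyte markers, of which 4 of 8 were above 1 CPM in every library, summed to 58.7 to 84.1 CPM (WT) and 76.3 to 99.6 CPM (CF) at day 65, and to 405 to 863 CPM in WT and 93.6 to 223 CPM in CF lung at term, without overlap between genotypes. In bulk tissue fewer cells of a type and less RNA per cell cannot be told apart, and the part of these shifts in the results was not tested. In 4 CF libraries (proximal day 80 replicate 1, day 100 replicate 2 and day 120 replicate 2, and distal day 120 replicate 2) levels relative to the other replicate fell by more than 0.2 on the log2 scale per doubling of exon length. The steepest slope, -0.51, was that of proximal day 120 replicate 2.

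On Oar_v4.0, LIN28B lies at chr8:32018586-32153513 on the minus strand, HMGA2 at chr3:153525064-153669145 (minus), IGDCC3 at chr7:12044044-12087096 (minus), IGF2BP1 at chr11:37009695-37052538 (minus), IGF2BP2 at chr1:199458969-199620851 (plus) and IGF2BP3 at chr4:31897319-32049061 (minus). None of the 6 shared exon bases with another gene of the table. The exons counted for LIN28B spanned 15269 bases and those of HMGA2 only 447, against a median of 2497 over all genes. Levels per kilobase of HMGA2 rest on that short model. All 6 genes passed the filter on low counts in every comparison.

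Per kilobase of exon, the order at day 65 was IGF2BP2 (median 14.3 CPM per kilobase over 8 libraries, range 5.25 to 18.7), HMGA2 (11.8, 4.05 to 18.6), IGF2BP1 (6.67, 4.10 to 9.87), IGF2BP3 (5.03, 4.61 to 5.41), IGDCC3 (1.18, 0.737 to 2.13) and LIN28B (0.0644, 0.0324 to 0.110). Neighbours among the upper 4 overlapped in range, while IGDCC3 and LIN28B each lay below every library of the gene above. At term, over both genotypes, the order was IGF2BP2 (9.85, 5.71 to 13.6), IGF2BP3 (2.76, 1.33 to 5.38), IGF2BP1 (0.348, 0.219 to 0.456), HMGA2 (0.218, 0.118 to 0.930), IGDCC3 (0.0101, 0 to 0.0312) and LIN28B (0.00397, 0 to 0.00763). IGF2BP2, IGF2BP3 and IGF2BP1 were then apart from each other without overlap, and IGF2BP1 overlapped HMGA2. IGDCC3 overlapped LIN28B. The order of the medians within these pairs differed by genotype. In WT that of HMGA2 (0.604) lay above that of IGF2BP1 (0.348) and that of IGDCC3 (0.0133) above LIN28B (0.00349). In CF HMGA2 (0.161) lay below IGF2BP1 (0.339) and IGDCC3 (0.000851) below LIN28B (0.00564). The last order is near the floor, since CF term libraries held 0 to 12 counts of either gene. It did not hold in CF proximal lung, with 0.0188 and 0 for IGDCC3 against 0.00763 and 0 for LIN28B.

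**Figure D1:**
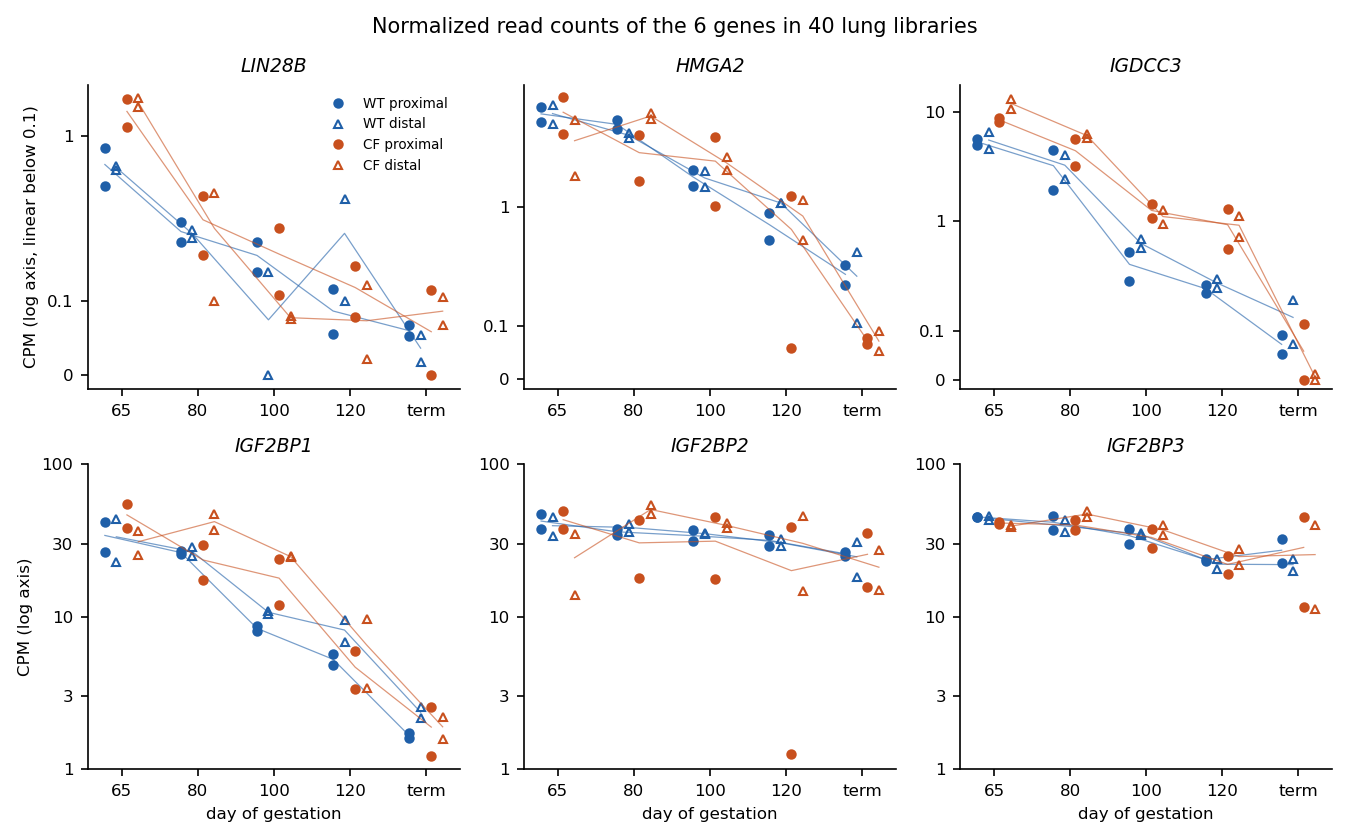
Level of each gene in CPM (log axis, or linear below 0.1 CPM and logarithmic above it in the upper row) against day of gestation for the 40 libraries, with WT in blue, CF in orange, circles for proximal and triangles for distal lung, and lines through the means of 2 libraries. For LIN28B, HMGA2, IGDCC3 and IGF2BP1 all 8 term libraries lie below those of day 65, while IGF2BP2 and IGF2BP3 stay between 11.2 and 45.3 CPM at term. The course is not a steady fall in CF distal lung. There the mean of HMGA2 was 3.58 CPM at day 65 and 5.77 CPM at day 80, and that of IGF2BP1 31.1 and 42.1 CPM.

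LIN28B, the inhibitor of let-7 maturation, was scarce from the start. In WT proximal lung its level was 0.841 and 0.494 CPM at day 65 and 0.0523 and 0.0670 CPM at term, and in WT distal lung 0.622 and 0.658 CPM at day 65 and 0.0543 and 0.0176 CPM at term. In CF proximal lung it was 1.12 and 1.67 CPM at day 65 and 0.116 and 0 CPM at term, and in CF distal lung 1.68 and 1.49 CPM against 0.105 and 0.0669 CPM. The groups did not overlap in any of the 4 time courses, and all 4 CF day 65 libraries lay above all 4 of WT. Much of the drop came early: the median over 8 libraries was 0.983 CPM at day 65, 0.255 at day 80, 0.128 at day 100, 0.109 at day 120 and 0.0606 at term. From day 80 on single libraries held 48 LIN28B counts at most, and WT distal day 100 replicate 1 and CF proximal term replicate 2 held 0. Its paralogue LIN28A, with the same action on let-7, had 2 counts at most in any library.

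HMGA2, an architectural chromatin protein of proliferating fetal cells and a classic let-7 target, fell in WT lung by day 120 and again by term. WT proximal levels were 6.84 and 5.19 CPM at day 65, 5.32 and 4.49 at day 80, 2.04 and 1.5 at day 100, 0.529 and 0.884 at day 120 and 0.322 and 0.218 at term. WT distal levels were 7.13 and 4.96 CPM at day 65, 1.07 and 1.07 at day 120 and 0.416 and 0.105 at term. CF proximal lung held 4.11 and 8.30 CPM at day 65, 1.23 and 0.0580 at day 120 and 0.0776 and 0.0662 at term, and CF distal lung 5.35 and 1.81, 1.15 and 0.522, and 0.0527 and 0.0892 CPM. The 4 CF term libraries, with 5 to 8 counts each, lay below the 4 WT term libraries, with 12 to 46.

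IGDCC3, a cell surface protein of embryonic tissues and a let-7 target in other species, had the steepest course. In WT proximal lung it went from 5.63 and 5.0 CPM at day 65 through 4.49 and 1.94 at day 80, 0.284 and 0.526 at day 100 and 0.264 and 0.221 at day 120 to 0.0523 and 0.0922 at term. In WT distal lung it was 4.56 and 6.47 CPM at day 65, 0.248 and 0.30 at day 120 and 0.0723 and 0.193 at term. The main drop of WT lung lay between day 80 and day 100, where no library of the later day reached the earlier range. CF lung held more at days 65, 100 and 120. It held 8.73 and 8.12 (proximal) and 10.7 and 13.2 (distal) CPM at day 65, and 0.561 and 1.3 and 0.715 and 1.13 CPM at day 120. At day 100 the range over both regions was 0.937 to 1.45 CPM in CF and 0.284 to 0.686 CPM in WT. At term CF proximal lung had 0.116 and 0 CPM and CF distal lung 0.0105 and 0 CPM. CF lung lay above WT at days 65, 100 and 120 without overlap, while at day 80 the ranges overlapped (3.19 to 6.31 CPM in CF and 1.94 to 4.49 CPM in WT). At term 3 of 4 CF libraries lay below every WT library.

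The IGF2BP family separated into a member that fell like HMGA2 and a pair that did not. IGF2BP1 was 41.8 and 26.5 CPM in WT proximal lung at day 65, 26.9 and 25.8 at day 80, 8.73 and 8.03 at day 100, 4.82 and 5.69 at day 120 and 1.72 and 1.6 at term. WT distal lung held 44.0 and 23.0 CPM at day 65 and 2.18 and 2.54 at term, and the CF term libraries held 1.22 to 2.55 CPM against 25.5 to 55.2 at day 65. All 8 term libraries lay below all 32 others.

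IGF2BP2 was 47.1 and 37.7 CPM in WT proximal lung at day 65 and 26.8 and 25 at term, and 45.2 and 33.9 against 31.2 and 18.3 CPM in WT distal lung. The WT groups did not overlap, although the higher distal term library lay close to the lower day 65 library. CF proximal lung held 37.4 and 49.3 CPM at day 65 and 15.7 and 35.6 at term, and CF distal lung 35 and 13.8 and then 15 and 27.3 CPM, so that the distal groups overlapped. CF proximal day 120 replicate 2, the library with the steepest length slope, held 1.25 CPM where replicate 1 held 38.9.

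IGF2BP3 was the most even of the family among replicates before term, with 38.8 to 45.6 CPM over the 8 day 65 libraries and 19.1 to 27.8 CPM over the 8 of day 120. WT term libraries held 22.4 and 32.2 CPM (proximal) and 24.0 and 19.9 CPM (distal). In CF lung the 2 term animals stood apart in both regions, with 11.7 (proximal) and 11.2 CPM (distal) in replicate 1 and 45.3 and 39.9 CPM in replicate 2. IGF2BP3 in CF replicate 2 at term was thus as high as at day 65, whereas its IGF2BP1 was not.

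The first comparison asks how far each gene had changed by term. A gene passed when its Benjamini-Hochberg adjusted p, taken across the whole table in edgeR's quasi-likelihood test, did not exceed 0.05. A DEG, by the limits of the study, had an adjusted p no higher than 0.001 and a log2 change of at least 0.58 in either direction. For term against day 65, 6 of 6 genes fell in WT proximal lung, where 21.5% of all genes tested were lower at that threshold, and 6 of 6 in WT distal lung (background 21.0%). In CF lung all 6 were lower in both regions, and 3 of 6 passed in the proximal region (background 5.83%) and 4 of 6 in the distal region (15.0%). Of the 19 falls that passed, 10 met the limits for a DEG, 3 in WT proximal, 4 in WT distal and 3 in CF distal lung. There 6.56%, 5.25% and 2.28% of all genes were DEGs that fell. In CF proximal lung 0 of 6 did, with 0.0406% of all genes. No gene rose. The median log2 fold change of the 6 genes was -3.91, -3.98, -4.57 and -4.07 in WT proximal, WT distal, CF proximal and CF distal lung, where the median of all genes was 0.02, -0.00058, -0.08 and -0.01.

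LIN28B fell by 3.44 ± 0.80 (SE, 2 libraries a group here and below) on the log2 scale in WT proximal lung (edgeR adjusted p = 0.00706), by 4.11 ± 1.20 in WT distal lung (0.0224) and by 4.15 ± 0.96 in CF distal lung (0.0113). In CF proximal lung its change was -4.52 ± 1.4 (adjusted p = 0.0737), a change as large with a wider error. LIN28B passed there in 1 fit of all 40 libraries (edgeR adjusted p = 0.00398), with edgeR's bias-adjusted quasi-likelihood (0.0178) and in DESeq2 (0.0016). Summed over both libraries, its term level was 8.91% of that at day 65 in WT proximal lung (exact 95% interval 4.55% to 16.4%, counting error only), 5.57% in WT distal, 4.43% in CF proximal and 5.47% in CF distal lung. The CF proximal value also depended on libraries outside the comparison, since leaving out either CF proximal day 120 library brought the adjusted p to 0.0385 or 0.039. The WT distal call was lost without any 1 of the 4 libraries compared (adjusted p = 0.0535 to 0.124), the WT proximal call without day 65 replicate 1 (0.0515) or either term library (0.0777 and 0.0645), and the CF distal call without term replicate 2 (0.0678).

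HMGA2 fell in all 4 time courses, with log2 fold changes of -4.48 ± 0.44 in WT proximal, -4.57 ± 0.62 in WT distal, -6.40 ± 1.49 in CF proximal and -5.6 ± 0.73 in CF distal lung (adjusted p = 6.73e-05, 0.000543, 0.0304 and 0.000666). Its term level was 4.46% and 4.25% of the day 65 level in WT and 1.16% and 1.95% in CF lung. The exact intervals of WT (3.37% to 5.82% and 3.18% to 5.59%) lay above that of CF proximal lung (0.635% to 1.96%), and that of CF distal lung (1.03% to 3.36%) overlapped the second of them. They hold counting error only. The CF proximal call was lost without any 1 of the 4 libraries compared (adjusted p = 0.0872 to 0.199), with changes of -6.82 to -5.79.

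IGDCC3 fell in all 4, with log2 fold changes of -6.16 ± 0.64 in WT proximal, -5.38 ± 0.60 in WT distal and -7.10 ± 1.27 in CF proximal lung (adjusted p = 9.17e-05, 0.000209 and 0.0119). In CF distal lung the fitted change, -10.78 ± 0.70 (adjusted p = 2.03e-05), depends on the prior count of the fit, since 1 count remained over both term libraries against 2483 at day 65. The term level there was 0.0455% of day 65 (exact interval 0.00115% to 0.254%), below that of WT distal lung, 2.43% (1.62% to 3.53%), of WT proximal lung, 1.37% (0.787% to 2.21%), and of CF proximal lung, 0.735% (0.379% to 1.29%). These intervals hold counting error only, not the spread between animals. The gap to CF proximal lung rests on 1 library, as its replicate 1 held 12 counts at term and replicate 2 held 0. The fall of IGDCC3 was the largest of the 6 genes in each time course. The CF proximal call was lost without either CF proximal day 65 library (adjusted p = 0.0579 and 0.0615).

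IGF2BP1 fell in all 4, with log2 fold changes of -4.37 ± 0.25 in WT proximal, -3.86 ± 0.33 in WT distal, -4.62 ± 0.63 in CF proximal and -4.0 ± 0.50 in CF distal lung (adjusted p = 4.34e-06, 6.53e-05, 0.00427 and 0.000552). It kept its call in each of the 40 fits that left out 1 library, and its error was the smallest of the 4 steeply falling genes. Its sequence relatives moved less. IGF2BP2 fell by 0.72 ± 0.15 and 0.72 ± 0.24 in WT proximal and distal lung (0.00366 and 0.0363) and IGF2BP3 by 0.74 ± 0.19 and 1.04 ± 0.15 (0.0131 and 0.00075). In CF lung IGF2BP2 changed by -0.75 ± 1.19 and -0.17 ± 0.55 and IGF2BP3 by -0.52 ± 0.54 and -0.60 ± 0.46, none of which passed (adjusted p = 0.716, 0.839, 0.559 and 0.353). In 1 fit of all 40 libraries the 4 WT calls of IGF2BP2 (0.536 and 0.56) and IGF2BP3 (0.209 and 0.077) were lost, and summing the WT day 100 libraries ended that of IGF2BP2 in WT distal lung (0.0598). The WT distal call of IGF2BP2 was lost in 8 of 10 fits without 1 library (adjusted p up to 0.181), and the WT proximal call of IGF2BP3 without day 65 replicate 2 (0.0514) or term replicate 1 (0.0796).

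The direction of IGF2BP3 in CF lung was set by the term animal. With CF distal term replicate 2 left out it fell by 1.77 (adjusted p = 0.00336), and with replicate 1 left out the change was 0.039 (0.914). In proximal lung the change without replicate 1 was 0.14 (0.821).

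**Figure D2:**
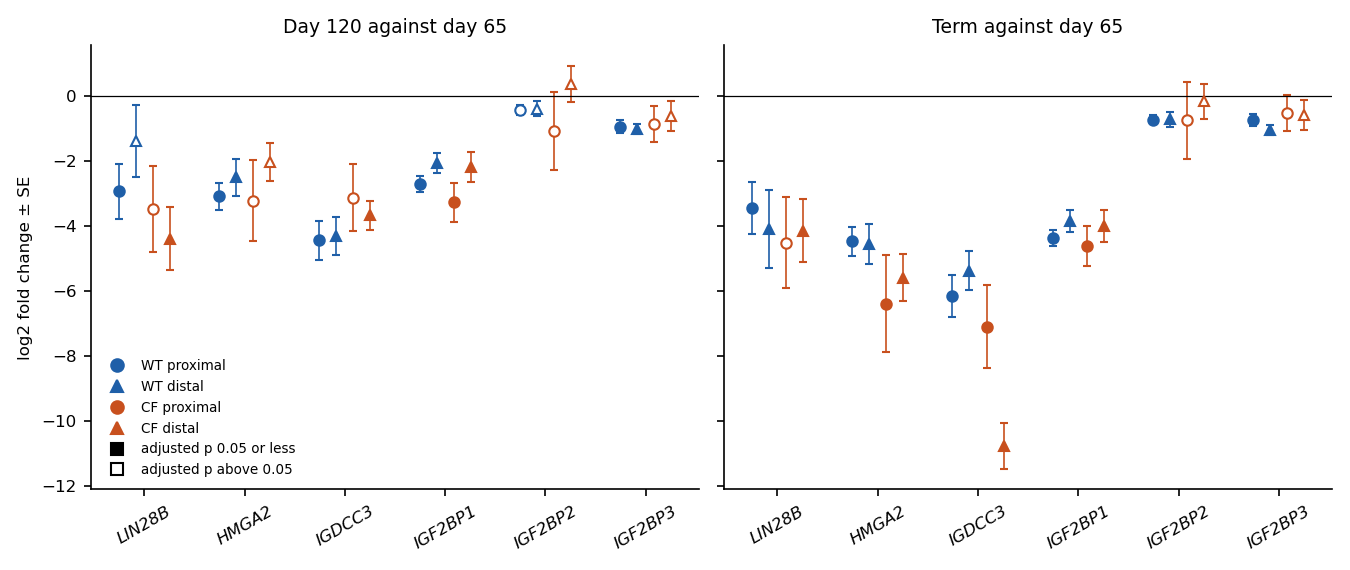
Log2 fold change ± SE of each gene at day 120 and at term against day 65 in the 4 time courses, from edgeR, with filled points for an adjusted p of 0.05 or less. LIN28B, HMGA2, IGDCC3 and IGF2BP1 lie at -3.44 or below at term in every time course, and IGF2BP2 and IGF2BP3 between -1.04 and -0.17.

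Before term libraries of 1 genotype had like depth. The median log2 fold change of the 6 genes at day 120 against day 65 was -2.82, -1.72, -3.18 and -2.11 in WT proximal, WT distal, CF proximal and CF distal lung. All 6 genes were lower at day 120 than at day 65 in both WT regions and in CF proximal lung, and 5 of 6 in CF distal lung. Of these falls, 5 of 6 passed in WT proximal lung (9.38% of all genes tested passed as lower) and 4 of 6 in WT distal (8.24%). In CF lung 1 of 6 passed in the proximal (0.615%) and 3 of 6 in the distal region (5.01%). IGF2BP1 was the gene whose fall passed in all 4, by 2.71, 2.05, 3.28 and 2.19 (adjusted p = 0.000121, 0.00299, 0.0411 and 0.0166). It was a DEG in WT proximal lung, where 1.35% of all genes were DEGs that fell. The CF proximal call was lost in 9 of 10 fits without 1 library (adjusted p up to 0.315), and the CF distal call without CF distal day 65 replicate 1 (0.06). IGDCC3 fell by 4.45 and 4.32 in WT (0.00114 and 0.00179) and by 3.67 in CF distal lung (0.00196), and its CF proximal change was -3.13 (0.191). HMGA2 fell by 3.09 and 2.51 in WT lung (0.00114 and 0.017), with changes of -3.22 (0.271) and -2.04 (0.0538) in CF. Its WT distal call was lost without day 65 replicate 1 (0.0576) or either day 120 library (0.099 and 0.0958).

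IGF2BP3 changed by -0.94 and -1.01 in WT proximal and distal lung by day 120 (adjusted p = 0.00972 and 0.00279), beside -0.74 and -1.04 by term. LIN28B changed by -1.39 ± 1.11 in WT distal lung (0.44), where day 120 held 0.413 and 0.0999 CPM, and by -3.48 ± 1.32 in CF proximal lung (0.256). It fell by 4.39 in CF distal lung (0.0211) and by 2.93 in WT proximal lung (0.0394), a call that was lost in each of the 10 fits without 1 library (adjusted p from 0.0645 to 0.208). The CF distal call of LIN28B was lost without either day 65 library (0.0634 and 0.0825) or without day 120 replicate 1 (0.102), and the WT proximal call of IGF2BP3 without either day 120 library (0.057 and 0.062). IGF2BP2 did not pass in any time course, with changes of -0.43, -0.38, -1.07 and 0.38. Its proximal CF value rested on a single library, as without replicate 1 at day 120 it was -5.06 (adjusted p = 0.0135).

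Between neighbouring time points 9 of 96 tests passed, all lower. In WT proximal lung IGF2BP1 fell by 1.67 and IGDCC3 by 3.02 between days 80 and 100 (adjusted p = 0.00886 and 0.0345), an interval in which 0.665% of genes were lower. Between day 120 and term HMGA2 fell by 1.38 and IGF2BP1 by 1.66 in WT proximal lung (0.0398 and 0.00146, background 11.1%) and by 2.06 and 1.80 in WT distal lung (0.031 and 0.00507, background 12.3%). CF distal lung lost HMGA2 (-3.56), IGF2BP1 (-1.81) and IGDCC3 (-7.11) in the same interval (0.011, 0.0253 and 0.00076, background 11.5%), with IGDCC3 a DEG (0.256% of all genes). The other 12 intervals gave no call. In them the share of all genes that were lower was 0% from day 65 to 80 in WT proximal and both CF regions and 0.00547% in WT distal lung, and from day 80 to 100 it was 0.252% in WT distal and 0% in both CF regions. From day 100 to 120 it was 1.29% in WT proximal, 1.16% in WT distal, 0.00508% in CF proximal and 0.400% in CF distal lung, and from day 120 to term 0.279% in CF proximal lung. Both calls between days 80 and 100 were lost with the WT day 100 libraries, which carry 1 animal label, summed (IGF2BP1 0.0832, IGDCC3 0.172). Leaving out 1 library ended the call in 8 of 10 fits for IGDCC3 between days 80 and 100, in 4 of 10 for IGF2BP1 there, and in 7 of 10 for HMGA2 between day 120 and term in each WT region. In CF distal lung between day 120 and term the IGF2BP1 call was lost in 3 of 10 such fits and the HMGA2 call in 2 of 10, and that of IGDCC3 in none.

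The genotype comparison asks whether CF lung differed from WT at the same age. Of 60 tests, 1 passed. IGDCC3 was lower in CF distal lung at term, with a log2 difference of -4.23 ± 0.82 (edgeR adjusted p = 0.00416), where 7.57% of all genes tested were lower and 15.2% differed in either direction. That value compares 1 count over both CF libraries with 30 over both WT libraries, a ratio of 24.7 after scaling (exact interval 4.10 to 1006, counting error only). The call remained in each of 20 fits without 1 library (0.00298 to 0.0412), and under the bias-adjusted quasi-likelihood the adjusted p was 0.0901. In proximal lung the term difference was -0.27 ± 0.93 (0.916), with 12 counts in CF against 17 in WT, and all 12 came from replicate 1. Without that library the proximal difference passed (adjusted p = 0.0425), but against a CF library with 0 counts, so its fitted size is not given. In the other 9 comparisons 0 of 54 tests of the 6 genes passed. The share of all genes that differed in them was 0.167%, 0.0885%, 0.383%, 1.35% and 6.09% in proximal lung at days 65, 80, 100 and 120 and at term, and 5.23%, 5.92%, 5.30% and 4.38% in distal lung at the first 4.

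Some differences that did not pass were large. LIN28B at day 65 was 1.06 ± 0.99 (proximal) and 1.3 ± 0.98 (distal) higher in CF on the log2 scale (adjusted p = 0.699 and 0.476). IGF2BP1 at day 100 was 1.09 ± 0.43 and 1.20 ± 0.40 higher (0.3 and 0.0966), and the distal value passed without either CF distal day 120 library (0.0262 and 0.0264). IGDCC3 at day 120 was 1.93 ± 0.86 and 1.74 ± 0.52 higher (0.267 and 0.0738). HMGA2 at term was 1.88 ± 1.03 and 1.82 ± 0.69 lower (0.339 and 0.0866), and the distal value passed without WT distal term replicate 2 (0.0299). IGF2BP3 at term in distal lung was 0.25 ± 0.37 higher (0.701), which became 0.85 (0.00852) without CF replicate 1 and -0.97 (0.0169) without CF replicate 2.

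**Figure D3:**
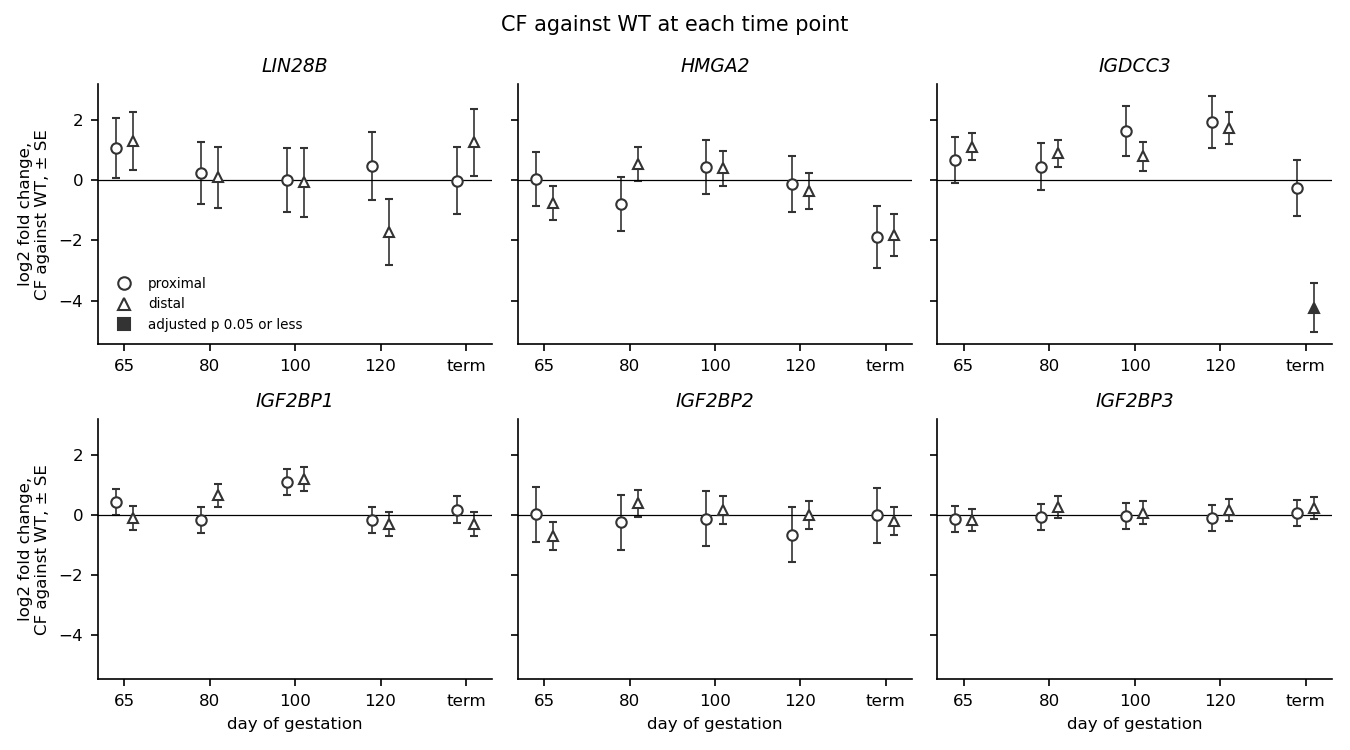
Log2 fold change ± SE of CF against WT at each time point for the 6 genes in proximal and distal lung, from edgeR, with filled points for an adjusted p of 0.05 or less. The filled point is IGDCC3 in distal lung at term (-4.23), while its values at days 65 to 120 lie above 0.

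Over all 5 time points, genotype labels were permuted within time points in all 7776 arrangements (two-sided exact test on log2 CPM, 12 tests). The smallest exact p was 0.117, for HMGA2 in proximal lung, where CF was 0.77 lower on average and higher at 1 of 5 time points. For IGDCC3 CF was 0.65 higher in proximal lung (exact p = 0.231) and 0.20 higher in distal lung (exact p = 0.702), higher at 4 of 5 time points in each region. With the term libraries left out, in 1296 arrangements, IGDCC3 was 1.16 higher in CF proximal lung (exact p = 0.00309) and 1.14 higher in CF distal lung (exact p = 0.00154), at 4 of 4 time points in both. In distal lung the direction before term was thus opposite to that at term, and in proximal lung no direction at term was shown. Smooth muscle markers, of which 5 of 5 were above 1 CPM in every library, were also higher in CF lung before term. Their sum was 328 to 476 CPM in WT and 1044 to 1309 CPM in CF lung at day 65. It was 282 to 334 and 621 to 996 CPM at day 80, and 646 to 721 and 896 to 1191 CPM at day 100. At day 120 it was 458 to 756 and 1115 to 1498 CPM. In neither genotype was the range of the sums lower at day 120 than at day 65, while that of IGDCC3 was lower in both. At term the sums were 577 to 959 CPM in WT and 271 to 540 CPM in CF lung. The part of smooth muscle and of depth in the IGDCC3 difference was not tested.

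The difference in change between genotypes was tested directly. IGDCC3 in distal lung fell by 5.98 ± 0.98 more in CF than in WT between day 120 and term (edgeR adjusted p = 0.00315, with 5.10% of genes more lowered in CF) and by 5.34 ± 0.95 more between day 65 and term (0.00548, background 4.20%). These were 2 of 36 tests, and both rest on the 1 count left in CF distal lung at term. The second had an adjusted p of 0.0599 under the bias-adjusted quasi-likelihood. In proximal lung the difference between day 120 and term was -2.20 (0.427), and without CF proximal term replicate 1 it passed (0.0179), again against the library with 0 counts. In the other 4 comparisons of this kind the share of genes more lowered in CF was 1.19% (day 120 to term) and 0.698% (day 65 to term) in proximal lung and 0% from day 65 to 120 in both regions. For the other 5 genes no difference in change passed, which does not show that their courses were alike.

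No difference between proximal and distal lung passed for the 6 genes. None of 36 edgeR tests did, in 6 comparisons where 298 to 496 of 20779 genes had an unadjusted p below 0.05 and 0% passed at each single time point. Over all time points 4 of 20779 genes (0.0193%) passed, and 27 with the animal as block, none of them among the 6 in either fit. Averaged over time points and genotypes, the distal minus proximal difference on the log2 scale was -0.20 ± 0.34 for LIN28B, 0.07 ± 0.26 for HMGA2, -0.06 ± 0.16 for IGDCC3, 0.27 ± 0.14 for IGF2BP1, 0.05 ± 0.24 for IGF2BP2 and -0.01 ± 0.13 for IGF2BP3. These are small beside the changes over gestation. Without CF day 120 replicate 1, IGF2BP2 was 1.76 higher in distal lung at day 120 (0.00928), since the remaining CF proximal library was the one at 1.25 CPM.

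**Figure D4:**
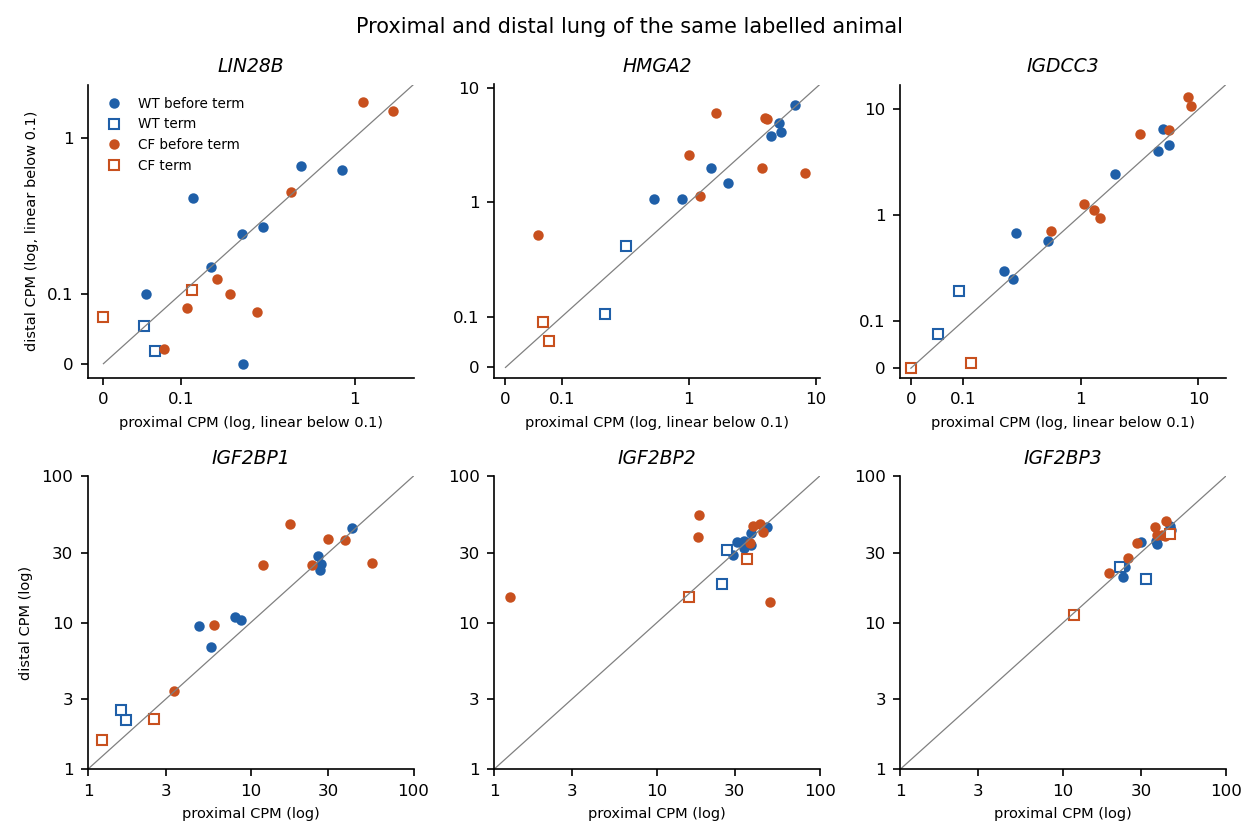
Level in distal against proximal lung (CPM) of the same labelled animal for the 6 genes, 1 point for each of 20 pairs of libraries, with WT in blue and CF in orange, filled circles before term and open squares at term, and a line of equality. Levels of HMGA2, IGDCC3 and IGF2BP1 spread along the line, with single CF points of HMGA2 and IGDCC3 far off it (HMGA2 at day 120 in replicate 2, 0.0580 CPM proximal and 0.522 CPM distal), and the CF animals at term lie far apart along it for IGF2BP3 (11.7 and 11.2 CPM against 45.3 and 39.9 CPM).

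The machinery that makes let-7 was measured through the messenger RNAs of its proteins. Of 25 listed genes of let-7 processing and turnover 21 were tested, and between day 65 and term 11 fell and 4 rose in WT proximal lung, 10 fell and 3 rose in WT distal, none passed in CF proximal (median log2 fold change -0.33 against -0.08 over all genes), and 6 fell and 2 rose in CF distal lung. Over all genes 23.5%, 21.8%, 5.78% and 16.1% rose in WT proximal, WT distal, CF proximal and CF distal lung, beside the shares that fell given above. The median was -0.43, -0.48 and -0.35 in WT proximal, WT distal and CF distal lung, where that of all genes was near 0. MSI1, an RNA-binding protein of stem cells, fell in 3 of 4 time courses (-4.52, -3.67 and -7.14) with -6.22 (adjusted p = 0.0603) in CF proximal lung. XPO5, the exporter of microRNA precursors, fell by 1.03, 0.97 and 1.12, and DROSHA, the nuclear enzyme that cuts primary microRNAs, by 0.90, 0.90 and 0.89 in the same 3. AGO4, a carrier of mature microRNAs, rose by 1.08, 0.74 and 0.72.

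DICER1, which cuts let-7 precursors into the mature form, fell in WT proximal lung by 0.43 (adjusted p = 0.00795), with changes of -0.48 (0.0879), -0.65 (0.438) and -0.35 (0.438) elsewhere. ZCCHC11 (TUT4), the uridylyltransferase that LIN28 can recruit, fell by 1.14 and 1.26 in WT proximal and distal lung (0.000199 and 0.00399), with -0.31 (0.772) and -0.15 (0.759) in CF. Its relative ZCCHC6 (TUT7) rose by 0.96 in CF distal lung (0.0274), with 0.23 (0.19), -0.01 (0.982) and 0.84 (0.23) in the other time courses. For DIS3L2, the nuclease of uridylated precursors, changes were 0.00285, -0.05, 0.10 and 0.44, and none passed.

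Mature let-7 was not measured, because the libraries were primed on poly(A) tails. Of 7 rows named for let-7 genes, MIRLET7A, MIRLET7B, MIRLET7C, MIRLET7F, MIRLET7G and MIRLET7I held 69 counts at most in any library. MIRLET7D, with 3 to 145 counts, changed by 1.13 (adjusted p = 0.332) and 0.92 (0.414) in WT and by -2.09 (0.104) in CF proximal lung and fell by 3.43 (0.00509) in CF distal lung. Such reads come from polyadenylated primary transcripts or from host genes and say nothing of the mature form.

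Other let-7 targets were mixed. Of 36 listed, 14 of 35 tested fell and 6 rose in WT proximal lung, and 14 of 35 fell and 2 rose in WT distal lung. In CF lung 4 of 36 fell in the proximal region, and 13 of 36 fell and 4 rose in the distal region. Medians were -0.40, -0.58, -0.75 and -0.37 in that order, beside 0.02, -0.00058, -0.08 and -0.01 over all genes. Of all genes 21.5%, 21.0%, 5.83% and 15.0% fell and 23.5%, 21.8%, 5.78% and 16.1% rose. TRIM71, an RNA-binding ubiquitin ligase of embryonic cells, changed by -5.47, -5.96, -7.66 and -5.44 (adjusted p = 4.03e-05, 2.83e-05, 0.00128 and 0.00145), from 4.25 to 8.71 CPM at day 65 to 0.0211 to 0.290 CPM at term. DNA2 and RRM2, which serve DNA replication and nucleotide supply, fell in all 4 time courses, with changes of -4.31 to -2.39 and -4.56 to -1.99. STARD13 rose in 3 of 4, by 1.10, 1.17 and 1.24, with 1.00 (0.0603) in CF proximal lung. The list thus held both genes that fell and genes that rose.

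MYCN, a growth-promoting transcription factor, fell by 1.96, 1.59 and 2.28 in WT proximal, WT distal and CF distal lung (0.000903, 0.000399 and 0.00396), with -1.79 (0.164) in CF proximal lung. HMGA1, the relative of HMGA2, changed by -0.70, -0.58, -0.96 and -0.39 and did not pass (0.071, 0.104, 0.386 and 0.43). ARID3B, a DNA-binding protein, rose by 0.95 in WT proximal lung (0.0329), with 0.72, -0.93 and -0.47 in the others (0.13, 0.464 and 0.519).

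Genes of proliferation were lower at term. All 20 of the list were lower at term in each time course, and 20, 20, 19 and 20 passed, with medians of -1.73 and -1.79 in WT and -3.60 and -3.67 in CF lung. Of all genes 21.5%, 21.0%, 5.83% and 15.0% fell in WT proximal, WT distal, CF proximal and CF distal lung. TOP2A, a topoisomerase of dividing cells, fell by 2.49, 2.65, 5.52 and 5.19, and AURKB, a mitotic kinase, by 2.35, 2.49, 4.44 and 4.87. MKI67, the marker of cycling cells, was 173 to 233 CPM in WT and 71.5 to 205 CPM in CF lung at day 65, and 20.3 to 63.3 CPM and 3.63 to 7.61 CPM at term. MKI67 was lower in CF at term by 3.21 (proximal, 0.0282) and 2.86 (distal, 0.00344), the time at which every CF library also lay below every WT library for HMGA2. The part of cell division in the course of the 6 genes was not tested.

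**Figure D5:**
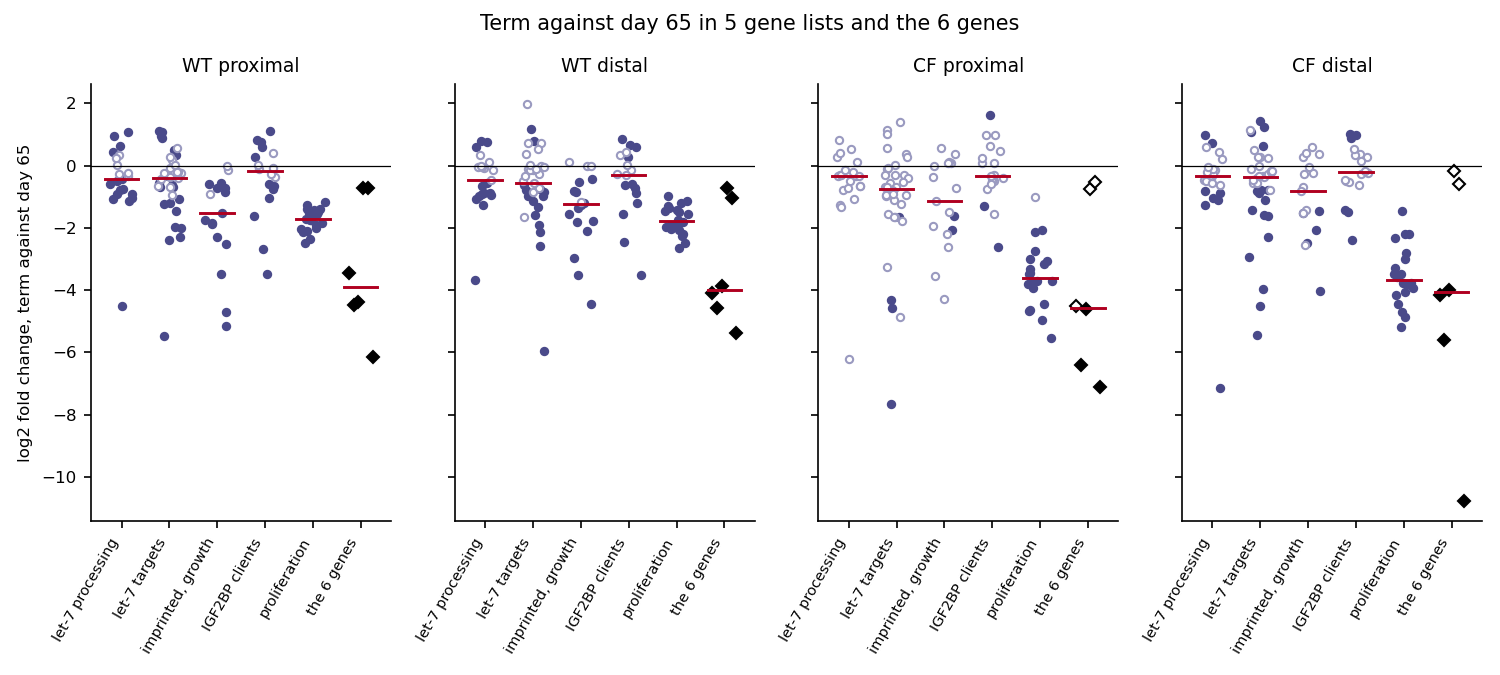
Log2 fold change of term against day 65 for the genes of 5 lists and for the 6 genes (diamonds), with 1 panel for each time course, a red line at the median of each list and filled points for genes that passed. Medians of the let-7 lists lie between -0.75 and -0.33, those of proliferation between -3.67 and -1.73, and those of the 6 genes between -4.57 and -3.91.

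Of the imprinted and fetal growth genes, 14 of 17 tested fell in WT proximal, 14 of 18 in WT distal, 2 of 17 in CF proximal and 5 of 17 in CF distal lung, with medians of -1.52, -1.23, -1.14 and -0.81, and none rose. The share of all genes that fell was 21.5%, 21.0%, 5.83% and 15.0% in the same order, so fewer genes of any kind passed in CF lung. DLK1, a fetal inhibitor of differentiation, fell by 4.70, 2.96 and 4.04 in WT proximal, WT distal and CF distal lung, with -3.53 (adjusted p = 0.056) in CF proximal lung. PLAGL1, a transcription factor of the imprinted network, fell by 1.87, 1.82 and 2.08 in the same 3, with -1.94 (0.0542) in CF proximal lung. NNAT, a membrane protein of fetal tissues, fell in all 4, by 1.76, 1.21, 2.06 and 2.50.

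IGF2, the fetal growth factor after which the IGF2BP family is named, was 1178 to 1962 CPM in WT lung at day 65 and 62.1 to 209 CPM at term. It fell by 3.48 and 3.51 in WT proximal and distal lung (adjusted p = 1.93e-05 and 0.000662). In CF lung it was 360 to 1627 CPM at day 65 and 511 to 1722 CPM at term, with changes of 0.10 (0.964) and 0.27 (0.774). The difference in change was 3.56 ± 1.28 in proximal lung (0.196) and 3.75 ± 0.88 in distal lung (0.0218), and at term CF exceeded WT by 2.93 (0.0867) and 2.47 (0.0187). At term IGF2 was thus higher in CF distal lung while IGF2BP1 there differed by -0.29 ± 0.40 (0.672) and LIN28B by 1.26 ± 1.12 (0.48).

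Of 18 client transcripts and partners of the IGF2BP proteins, 7 fell and 5 rose in WT proximal, 8 fell and 4 rose in WT distal, 2 fell and 1 rose in CF proximal and 3 fell and 3 rose in CF distal lung, with medians of -0.19, -0.29, -0.32 and -0.20. In CF lung the shares that fell and rose were near those of all genes (5.83% and 5.78% in proximal, 15.0% and 16.1% in distal lung). In WT lung the share that rose was also near that of all genes (23.5% in proximal and 21.8% in distal lung). Of all genes 21.5% and 21.0% fell in WT proximal and distal lung. GLI1, a transcription factor of hedgehog signalling, fell in all 4 by 2.38 to 2.68, and FSCN1, an actin-bundling protein, fell in all 4 by 1.3 to 1.62. CD44, a hyaluronan receptor, rose in all 4 by 0.59 to 1.61. YBX1, an RNA-binding partner of these proteins, rose in 3 of 4, by 0.61, 0.64 and 0.87, with 0.99 (adjusted p = 0.0687) in CF proximal lung.

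CFTR itself, targeted in the CF animals, was lower at term than at day 65 in every time course, by 1.47, 1.49, 2.35 and 2.21 (adjusted p = 0.000731, 0.000327, 0.0156 and 0.00166). At term it was 1.43 lower in CF in both regions (0.0282 and 0.00329), and at the 8 earlier comparisons it was 0.44 to 0.86 lower without passing. A targeted exon need not remove the messenger RNA, so the level is a weak check of the labels.

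The 6 courses were also set against each other as Pearson correlations of log2 CPM over the 40 libraries, which share their time points, animals and depths. HMGA2 and IGF2BP1 were the most alike (r = 0.94), followed by IGF2BP1 and IGDCC3 (0.89) and HMGA2 and IGDCC3 (0.83), and LIN28B was most like IGDCC3 (0.73) and least like IGF2BP2 (0.11). In the 20 WT libraries alone LIN28B was most like HMGA2 (0.78, against 0.72 with IGDCC3), and its r with IGF2BP2 was 0.64 in WT and 0.039 in CF. The median over the 15 pairs was 0.64. With MKI67, r was 0.94 for HMGA2, 0.83 for IGF2BP1, 0.74 for IGDCC3, 0.70 for IGF2BP3, 0.61 for IGF2BP2 and 0.48 for LIN28B. In WT lung alone these values were 0.94, 0.86, 0.85, 0.92, 0.85 and 0.73, and in CF lung 0.97, 0.93, 0.80, 0.66, 0.58 and 0.45, so that the order of the other 5 genes differed between genotypes. Over all 40 libraries HMGA2 followed the marker of cycling cells as closely as it followed IGF2BP1.

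Among the 14864 genes whose log2 CPM averaged at least 0, those whose pattern was most like HMGA2 were FANCI (r = 0.98), CBX5 (0.98), ATAD5 (0.97), CKAP5 (0.97) and RBL1 (0.97), which serve DNA repair, heterochromatin, replication, the spindle and the cell cycle. Among those most like IGF2BP1 were SNCAIP (0.96), MID1 (0.96), NCAM1 (0.96) and PHKA2 (0.95), of which NCAM1 is an adhesion molecule of embryonic tissue. For LIN28B they were LOC105609211 (0.81), FAM110B (0.80), KCTD17 (0.79), LOC101122803 (0.78) and DPYSL4 (0.78). LIN28B held 181 counts at most in a library, and the part of low counts in its lower values was not tested.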

How the data were processed

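Per the labels and the methods, poly(A) RNA was primed with oligo dT and sequenced as 100 bp paired ends. The authors aligned reads to Oar_v4.0 with STAR (2.7.0e_0320 in the methods, 2.6 in the submitters' processing notes), counted them with featureCounts 1.6.3 of Subread, and deposited raw counts per gene and library, not normalized or pooled. The strand setting, annotation release and treatment of mates are not given in the sources used here. Of counts from 1 to 20, 69.2% to 85.8% were even, and intervals on counts assume independent counts.

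Samples were grouped by genotype, region and day from the titles. Genes were kept by filterByExpr (count minimum 10, total minimum 15), scaled by TMM (factors 0.751 to 1.19) and tested in R 4.3.3 with edgeR 4.0.16 (glmQLFit, glmQLFTest, Benjamini-Hochberg over all genes), in 4 fits of 10 libraries for time, 2 of 20 for genotype and its difference in change, and 1 of 40 for region. Genotype over all time points was permuted exactly on log2 CPM (prior count 0.5), and correlations used a prior count of 2. The fits were tested on simulated data. Alternatives were RLE factors, DESeq2 1.42.0, the bias-adjusted quasi-likelihood, no filter, counts thinned to equal depth, 1 fit of 40 libraries, WT day 100 libraries summed, a replicate block, each library left out, other prior counts, Spearman correlation, subsets of libraries and, chosen after seeing the data, removal of the 4 libraries with steep length slopes and a crossed pairing.

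Genes named are the 6 members, LIN28A, DICER1, TUT4, TUT7, DIS3L2, TRIM71, HMGA1, MYCN, ARID3B, IGF2, MKI67, CFTR and let-7 rows, the 5 genes most like LIN28B, HMGA2 and IGF2BP1 (1 of them is not reported here), and from each list up to 3 in each direction with the largest mean change of term against day 65 among those passing in at least 3 of 4 time courses. Members and lists were chosen with earlier results of these data known. Names are those of the files, and 18636 of 24478 equal a symbol of the RefSeq table (ARS-UI_Ramb_v3.0). H19, MEG3, the 50-day time point and sequences were not used here. A further table repeated the CF columns and was not used.

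Proximal and distal libraries pair by animal, which the labels give: deviations of animals from the group mean correlated above 0.1 in 7 of 10 conditions (-0.47 to 0.85), while 32 of 60 deviations of the 6 genes had the same sign in both regions.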

Additional observations from a re-analysis of the deposited data

Results flagged for a closer look

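A single gene and region met a rule for a closer look, by the test of the difference in change between CF and WT. IGDCC3 in distal lung changed by -5.98 more on the log2 scale in CF than in WT between day 120 and term (edgeR adjusted p = 0.00315), and by -5.34 more between day 65 and term (0.00548). The CF distal libraries of day 120 held 0.715 and 1.13 CPM and those of term 0.0105 and 0 CPM. The WT distal libraries held 0.248 and 0.30 CPM at day 120 and 0.0723 and 0.193 CPM at term. The values rest on 1 count in CF against 30 in WT at term.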

How the results depend on the processing

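The count of the 6 genes that passed for term against day 65 (19 of 24) stayed within 1.5 times under every alternative, but single calls were lost. The fit of 40 libraries ended the WT calls of IGF2BP2 and IGF2BP3 at term, of IGF2BP3 (0.196 and 0.157) and, in 1 region each, LIN28B (0.12) and HMGA2 (0.0629) at day 120, and of IGF2BP1 (0.0951), IGDCC3 (0.0504) and HMGA2 (0.346 and 0.12) between neighbours. It gained CF calls, in CF proximal lung LIN28B at term (0.00398) and HMGA2 (0.0118), IGDCC3 (0.00254) and LIN28B (0.0324) at day 120. Between neighbours it gained IGF2BP1 from day 100 to 120 in CF distal and proximal lung (0.02 and 0.021). From day 120 to term in CF proximal lung it gained HMGA2 (0.0262) and IGDCC3 (0.00137). Thinning ended LIN28B in WT distal lung at term (0.0582) and, in WT proximal lung, LIN28B at day 120 (0.0527) and HMGA2 between day 120 and term (0.114), the last also lost with the bias-adjusted form (0.107). Summing the WT day 100 libraries ended IGF2BP2 in WT distal lung at term (0.0598), LIN28B in WT proximal lung at day 120 (0.0661), IGF2BP1 and IGDCC3 between days 80 and 100 and HMGA2 in WT distal lung between day 120 and term (0.0522). No filter ended that of LIN28B at day 120 (0.0842), and leaving out the steep libraries that of IGF2BP1 in CF proximal lung at day 120 (0.0598). DESeq2 raised the number passing between neighbouring time points from 9 to 16 and for CF against WT from 1 to 4, members that were DEGs at day 120 from 1 to 13 and between neighbours from 1 to 8, and calls over all genes from 9660 to 15031 (day 120 against day 65), 15423 to 26284 (neighbours), 8882 to 20446 (CF against WT), 3753 to 8831 (difference in change) and 4 to 46 (region). Members that were DEGs at day 120 numbered 5 in 1 fit of 40 libraries, 3 with the bias-adjusted quasi-likelihood, 5 without the filter and 2 after thinning. Between neighbours they numbered 0 with the bias-adjusted form and 2 without the filter. The bias-adjusted form left 1 of 2 differences in change, thinning gave 7 region calls over all genes, and summing the WT day 100 libraries gave 5790 calls for CF against WT. Without the 4 libraries with steep length slopes, a choice made after seeing the data, 3 genes passed for CF against WT, calls over all genes were 16760 (CF against WT), 9095 (difference in change) and 21 (region), and 0 members were DEGs between neighbours. Genotype permutation gave 2 passing tests without the term libraries against 0 with all. The median r over the 15 pairs was 0.79 in the 20 WT libraries. The cause of these shifts was not tested.

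Leaving out each library or animal in turn gave, for the 6 genes, 17 to 20 (term), 11 to 15 (day 120), 6 to 13 (neighbours), 1 to 3 (CF against WT), 2 to 5 (difference), 0 to 1 (region) and 0 to 1 (permutation) passing tests, and 7 to 10, 0 to 2, 0 to 2 and 0 to 1 DEGs for the first 4. Calls over all genes were 21857 to 26908, 7761 to 13219, 11872 to 18813, 6208 to 16864, 2196 to 10985 and 3 to 1098. The highest of most of these came without CF proximal day 120 replicate 1, which leaves replicate 2 alone. Lone libraries were assumed to vary like the others. Values that changed sign had not passed: IGF2BP2 in CF distal lung at term (range -0.68 to 0.59, 0.19 without term replicate 1) and at day 120 (-0.71 to 1.13, -0.12 without day 65 replicate 2), and IGF2BP3 in CF lung at term (-1.80 to 0.14 proximal, -1.77 to 0.039 distal, highest without term replicate 1).

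With the replicate block, IGF2BP2 in CF distal lung at term changed by 0.0083 (adjusted p = 0.992), 0 members were DEGs between neighbours, and 27 genes passed for region, or 22 with numbers crossed at 3 conditions, added after seeing the data. Across conditions replicate numbers share only a name (median r -0.06 proximal and 0.15 distal over 45 pairs). In single tests the block ended the calls of LIN28B in WT proximal lung at day 120 (0.0611), IGDCC3 there between days 80 and 100 (0.0645) and IGF2BP1 in CF proximal lung at day 120 (0.0861). Depth limits LIN28B throughout and HMGA2 and IGDCC3 at term, where libraries held 0 to 46 counts. Counts were also low before term for IGDCC3 in WT lung, with 10 to 23 at day 100 and 6 to 12 at day 120. For HMGA2 they were 18 to 43 in WT lung at day 120 and 5 in CF proximal day 120 replicate 2.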
